A study of Mus musculus with 8 samples.

Results

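The small nucleolar RNAs (snoRNAs) described here are those that lie in the introns of Rpl13a, the mouse gene of a protein of the large ribosomal subunit. They were taken by name from the deposited table, as the rows Snord32a, Snord33, Snord34, Snord35 and their lettered forms that belong to this host, with no filter on level. The table held 4 of them, Snord32a-201, Snord33-201, Snord34-201 and Snord35a-201, among 964 rows and among 279 rows with a snoRNA name. The cells were mouse bone marrow GMLPs, sorted from wild-type (WT) mice or from mice carrying iMLL-ENL, an inducible form of the MLL-ENL leukaemia fusion, with 4 libraries of each genotype. Cells of both genotypes were grown for 3 days with doxycycline (DOX), the inducer of such transgenes, so the drug and the culture were common to the groups and the genotype differed. The age of the mice, the cell type in which the transgene is driven, and whether each library came from its own mouse were not given in the sources used here, so the p-values measure the spread between these libraries, which may be technical. The identity of the sorted cells could not be checked, because their markers are messenger RNAs and surface proteins and the table holds small non-coding RNA.

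Box C/D snoRNAs are cut out of spliced introns and carry a C box near the 5′ end and a D box near the 3′ end, which bind a set of proteins with the methyltransferase fibrillarin. A stretch upstream of the D box, or of a second internal D′ box, pairs with ribosomal RNA and directs the addition of a methyl group to the ribose at the paired site. Rpl13a is one of the vertebrate hosts with a snoRNA in several of its introns, and its snoRNAs are also known from work on lipid-induced and oxidative stress, where they were studied apart from the protein.

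Sequences are shown for the 4 snoRNAs because they share a layout and little else. They were taken from the transcript set of GENCODE release M21 on GRCm38, on the minus strand of chromosome 7. The capitals mark the first TGATG, the core of the C box, and the last CTGA, the D box.
Snord32a-201: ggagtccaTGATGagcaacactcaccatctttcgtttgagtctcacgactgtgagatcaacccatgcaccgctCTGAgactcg
Snord33-201: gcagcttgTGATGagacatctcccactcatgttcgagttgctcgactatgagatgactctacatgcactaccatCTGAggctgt
Snord34-201: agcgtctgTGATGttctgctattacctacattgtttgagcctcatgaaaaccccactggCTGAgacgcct
Snord35a-201: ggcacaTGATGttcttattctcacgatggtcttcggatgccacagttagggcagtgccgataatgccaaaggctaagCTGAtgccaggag
Snord32a-201 and Snord33-201 go on from the C box core with an A, which gives the hexamer TGATGA, whereas Snord34-201 and Snord35a-201 have TGATGT. In Snord35a-201 the letters of the D box run into a second TGATG, so these motifs overlap there. Neither motif occurred on the opposite strand of any of the 4. TGATG within the first 15 bases together with CTGA within the last 15 was found in all 4, in 82.7% of the 98 GENCODE transcripts named Snord, in 0 of 42 named Snora and in 22.4% of all 1507 snoRNA transcripts. Snord34-201 was the shortest, with 70 bases and 46 bases between the boxes, and Snord35a-201 the longest, with 90 bases and 66 between the boxes.

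The snoRNAs occupied 4 of the 7 introns of Rpl13a-201, which has 8 exons and spans chromosome 7, 45125558 to 45128761. Snord32a-201 lay in intron 2 (45127382 to 45127464), Snord33-201 in intron 4 (45126864 to 45126947), Snord34-201 in intron 5 (45126601 to 45126670) and Snord35a-201 in intron 6 (45126346 to 45126435). Their introns were 171 to 240 bases long. The distance from the 3′ end of the snoRNA to the next exon was 63 bases for Snord34-201 and 69 for Snord33-201, and 107 and 108 for Snord32a-201 and Snord35a-201.

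**Figure D1:**
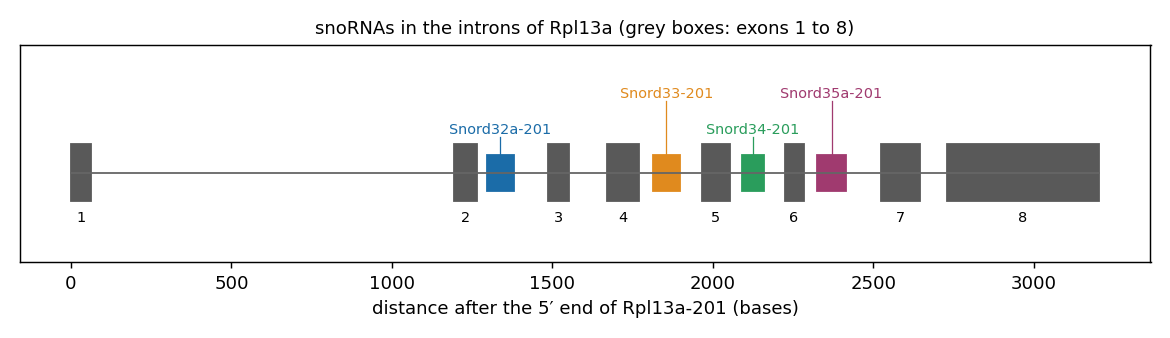
Map of the Rpl13a-201 transcript, with the distance after its 5′ end in bases on the x axis, exons 1 to 8 as grey boxes and the 4 snoRNAs as coloured boxes. The snoRNAs fill introns 2, 4, 5 and 6, starting 1297, 1814, 2091 and 2326 bases after the 5′ end.

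Between any 2 of the 4, identity in a global alignment was 53.3% to 65.9%, and the longest run of identical bases was 6 to 9. No stretch of 20 bases of Snord32a-201, Snord34-201 or Snord35a-201 occurred in another GENCODE transcript. Snord33-201 shared such stretches with 3 transcript models of its host and with the miRNA gene Mir5121. The mature miRNA in RefSeq (GRCm38.p6), shown because its letters are bases 3 to 23 of Snord33-201, is given with its seed in capitals.
mmu-miR-5121: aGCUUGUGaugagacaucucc
Reads of this part of Snord33-201 cannot be told from reads of the miRNA, and which name they were counted under is not given in the sources used here. For the remaining 3 snoRNAs an exactly matching read of at least 20 bases is specific among the transcripts of this annotation, in their own orientation. Reads with mismatches, the opposite strand and copies outside annotated transcripts were not checked.

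The values are reads per 1000000 reads of a library (RPM). In each library the values were whole multiples of a step of 0.108 to 0.169 RPM. That a step is 1 read was not shown, since the smallest value was 1 step in only 2 of the 8 libraries. If it is, the 4 rows rested on 227 to 1603 reads per library with a counting error of 2.50% to 6.64%, while the replicates of a row varied by 15.3% to 34.9% (SD as a percent of the mean). WT replicate 2 stood apart, its log2 levels of the tested rows correlating with those of the other WT libraries at 0.908 on average, where the remaining libraries reached 0.955 or more within their groups, and values without it are given where they differ. All snoRNA rows together came to 17936 ± 2944 RPM for WT and 23279 ± 3335 RPM for iMLL-ENL (SD, n = 4 each). The median log2 fold change of all 633 tested rows was 0.31, so that a row near this value moved like the median row. The sum of all rows went the other way, from 338084 ± 34805 RPM for WT to 276151 ± 15098 RPM for iMLL-ENL (SD), without overlap. In bulk samples such as these, fewer cells of a type and less RNA per cell cannot be told apart.

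On the deposited scale 1 of the 4 Rpl13a snoRNAs, Snord34-201, rose in iMLL-ENL, and the other 3 did not pass the test. The share of all tested rows called in either direction was 28.9%, and the share called higher was 20.4%, so 1 of 4 is near the background. All 4 rows had a fold change above 0, with a median log2 fold change of 0.39, beside 159 of 198 tested snoRNA rows above 0 and a median of 0.31 for them. All 4 passed the filter of 10 RPM in at least 4 libraries, each in every library. The call rested on the scaling: 0 of the 4 passed after TMM scaling or after scaling to the snoRNA sum, where 26.7% and 23.9% of all tested rows were called. After scaling to the sum of the rows, where 43.9% of all tested rows were called, 2 passed, Snord33-201 and Snord34-201.

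**Figure D2:**
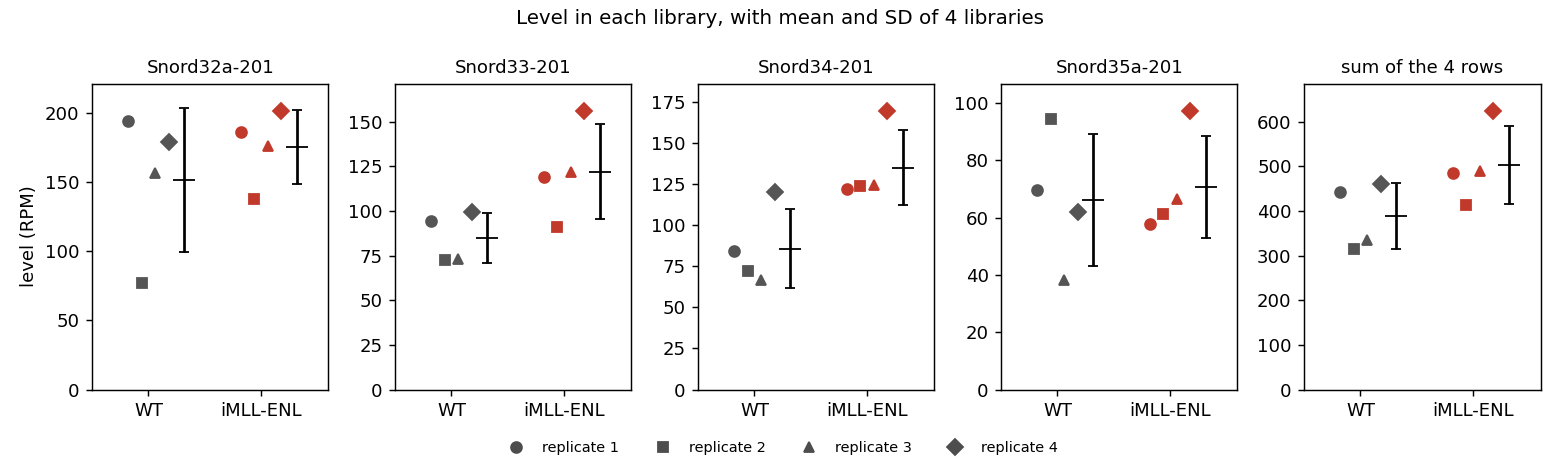
Level of each Rpl13a snoRNA and of their sum (y axes, RPM, from 0) in each library, with WT in grey and iMLL-ENL in red, a symbol for each replicate number, and the mean with SD of 4 libraries as a bar. Snord34-201 is the row whose groups do not overlap, and iMLL-ENL replicate 4 is the highest library in every panel.

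Snord32a, which guides methylation of a site in the small-subunit and one in the large-subunit ribosomal RNA, was the most abundant of the 4. Its level was 193.87, 76.76, 156.24 and 178.71 RPM in the WT libraries, replicates 1 to 4 in order, and 185.79, 137.91, 176.17 and 200.78 RPM in the iMLL-ENL libraries. WT replicate 2 was low and the remaining 7 libraries overlapped. The means were 151 ± 52 RPM for WT and 175 ± 27 RPM for iMLL-ENL (SD, n = 4). In limma the log2 fold change came to 0.28 ± 0.28 (SE), with a 95% interval of -0.37 to 0.92 and an adjusted p of 0.48. Without WT replicate 2 the WT mean was 176 ± 19 RPM (n = 3), the ratio of means went from 1.16 to 0.994 and the log2 fold change to -0.02, with an adjusted p of 0.94. The fold change was also below 0 after TMM scaling (-0.12) and after scaling to the snoRNA sum (-0.10).

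Snord33, a guide for a site in the small-subunit ribosomal RNA that neighbours the one of Snord32a, was at 94.34, 72.61, 73.39 and 99.65 RPM in the WT libraries and at 119.22, 91.01, 121.92 and 155.81 RPM in the iMLL-ENL libraries. iMLL-ENL replicate 2 lay within the WT range, and the other 3 iMLL-ENL libraries were above all WT libraries. The means were 85.0 ± 14.03 and 122 ± 27 RPM (SD, n = 4), a ratio of 1.44. In limma the log2 fold change was 0.51 ± 0.19 (SE), with a 95% interval of 0.07 to 0.94, an unadjusted p of 0.027 and an adjusted p of 0.073. On the deposited scale Snord33-201 thus missed the threshold. It passed after scaling to the sum of the rows (0.79, adjusted p = 0.017). With array quality weights, whose estimation stopped before convergence, it also passed (0.36, adjusted p = 0.015), but 457 of the 633 tested rows were called there. TMM scaling brought it to 0.11 (adjusted p = 0.74).

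Snord34, a guide for a site in the large-subunit ribosomal RNA, was at 84.55, 71.83, 66.45 and 119.98 RPM in WT replicates 1 to 4. In the iMLL-ENL libraries it was at 122.24, 123.68, 124.54 and 169.09 RPM. The groups did not overlap, although WT replicate 4 lay just below the lowest iMLL-ENL library. Among all tested rows 27.2% did not overlap with iMLL-ENL higher. The means were 85.7 ± 24.1 and 135 ± 23 RPM (SD, n = 4), a ratio of 1.57. In limma the log2 fold change was 0.67 ± 0.21 (SE), with a 95% interval of 0.21 to 1.14 and an adjusted p of 0.038. This placed it at rank 43 of the 198 tested snoRNA rows by log2 fold change. The call ended after TMM scaling (0.28, adjusted p = 0.27) and after scaling to the snoRNA sum (0.30, adjusted p = 0.095). It also ended without WT replicate 1 or 3 or any 1 iMLL-ENL library, with adjusted p-values (limma) of 0.070 to 0.096 and log2 fold changes of 0.56 to 0.71. Without WT replicate 2 the log2 fold change was 0.60 (adjusted p = 0.026) and without WT replicate 4 it was 0.85 (adjusted p = 0.011).

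Snord35a, which also guides a site in the large-subunit ribosomal RNA, was the least abundant of the 4. It was at 69.57, 94.30, 38.38 and 62.09 RPM in the WT libraries and at 57.77, 61.35, 66.65 and 97.07 RPM in the iMLL-ENL libraries. WT replicate 2, the lowest library for Snord32a-201, was the highest WT library for Snord35a-201, and the groups overlapped over most of their range. The means were 66.1 ± 23.0 and 70.7 ± 17.9 RPM (SD, n = 4). In limma the log2 fold change was 0.14 ± 0.28 (SE), with a 95% interval of -0.50 to 0.77 and an adjusted p of 0.76. It was 0.33 without WT replicate 2, -0.10 without WT replicate 3, -0.03 without iMLL-ENL replicate 4, -0.26 after TMM scaling and -0.24 after scaling to the snoRNA sum, and passed the test in none of these.

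**Figure D3:**
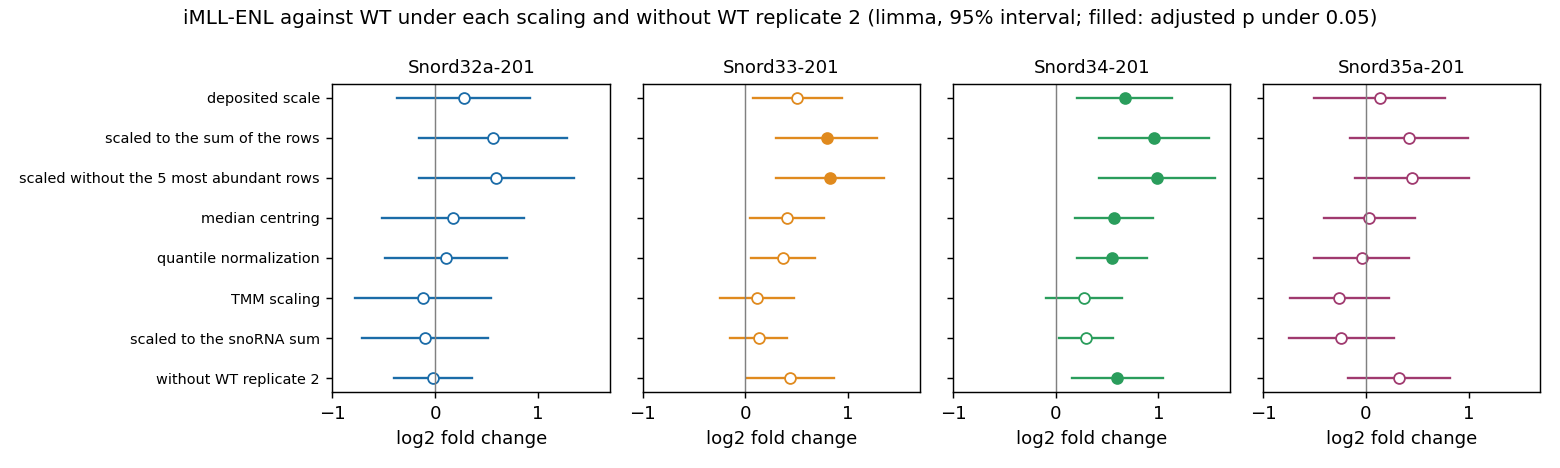
Log2 fold change of iMLL-ENL against WT (x axis) for each Rpl13a snoRNA under 7 scalings and without WT replicate 2 (y axis), with limma 95% intervals and filled points where the adjusted p was under 0.05. Snord34-201 lies above 0 in each, from 0.28 to 0.99, while Snord32a-201 and Snord35a-201 lie on either side of 0.

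The sum of the 4 rows was 442.33, 315.50, 334.46 and 460.43 RPM in the WT libraries and 485.02, 413.95, 489.28 and 622.75 RPM in the iMLL-ENL libraries. The groups overlapped, since iMLL-ENL replicate 2 was below 2 WT libraries. The means were 388 ± 74 and 503 ± 87 RPM (SD, n = 4), a ratio of 1.295. The ratio for the sum of all snoRNA rows was 1.298. As a share of all snoRNA, a measure that multiplying a library by a factor cannot move, the 4 rows made up 2.17% ± 0.28 for WT and 2.15% ± 0.09 for iMLL-ENL (SD, n = 4). WT libraries ran from 1.81% in replicate 2 to 2.47% in replicate 1, and the iMLL-ENL libraries from 2.02% to 2.22%. Without WT replicate 2 the WT share was 2.29% ± 0.18 (n = 3). The sign of the small difference was not stable. Leaving out 1 library at a time gave differences of -0.14 to 0.08 percentage points. The sign also turned with the 5 most abundant snoRNA rows left out of the snoRNA sum. The shares were then 2.66% ± 0.34 for WT and 2.76% ± 0.13 for iMLL-ENL (SD, n = 4), again with overlap. Among those 5 rows SNORD97.1-201 went from 2.27% to 5.69% of all snoRNA and SNORD44.1-201 from 6.24% to 8.73%.

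The 4 snoRNAs differed among themselves in how their own shares compared between the groups. Snord34-201 took 0.472% ± 0.058 of all snoRNA for WT and 0.578% ± 0.028 for iMLL-ENL (SD, n = 4), with groups that did not overlap (0.412% to 0.551% against 0.552% to 0.604%). Among the 198 tested snoRNA rows 16.2% had shares that did not overlap with iMLL-ENL higher, and 17.7% with iMLL-ENL lower. Snord33-201 took 0.476% ± 0.049 and 0.520% ± 0.051, Snord32a-201 0.853% ± 0.3003 and 0.754% ± 0.075, and Snord35a-201 0.369% ± 0.127 and 0.301% ± 0.034 (SD, n = 4), each with overlapping groups. The wide WT spread of Snord32a-201 and Snord35a-201 came with WT replicate 2, where Snord32a-201 was at 0.440% and Snord35a-201 at 0.541%, its lowest and its highest library.

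Of the Rpl13a sum, Snord34-201 made up 19.1%, 22.8%, 19.9% and 26.1% in the WT libraries and 25.2%, 29.9%, 25.5% and 27.2% in the iMLL-ENL libraries. WT replicate 4 lay inside the iMLL-ENL range and the other 3 WT libraries below it. Snord33-201 held the steadiest part in WT, 21.3% to 23.0%, against 21.99% to 25.0% in iMLL-ENL. Snord32a-201 ran from 24.3% in WT replicate 2 to 46.7% in WT replicate 3, and from 32.2% to 38.3% in iMLL-ENL. Snord35a-201 was at 29.9% in WT replicate 2, at 11.5% to 15.7% in the other WT libraries and at 11.9% to 15.6% in iMLL-ENL. Without WT replicate 2 (n = 3) the WT libraries ran from 38.8% to 46.7% for Snord32a-201, above the iMLL-ENL range. For Snord33-201 they then ran from 21.3% to 21.94%, just below the iMLL-ENL range. Snord34-201 and Snord35a-201 still overlapped. WT replicate 2 was left out here after it was seen to stand apart, and how often other rows separate without it was not counted. Shares of one sum are also bound to each other, so these separations are not independent results. The log2 ratio of Snord34-201 to Snord35a-201, both from adjacent introns and both guides of the large subunit, was 0.28, -0.39, 0.79 and 0.95 in the WT libraries and 1.08, 1.01, 0.90 and 0.80 in the iMLL-ENL libraries. These ratios overlapped, with WT replicate 4 above 2 iMLL-ENL libraries. Of all pairs of the 4 rows, this one differed most between the group means, by 0.54. The other pairs differed by -0.40 to 0.37 and overlapped as well.

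**Figure D4:**
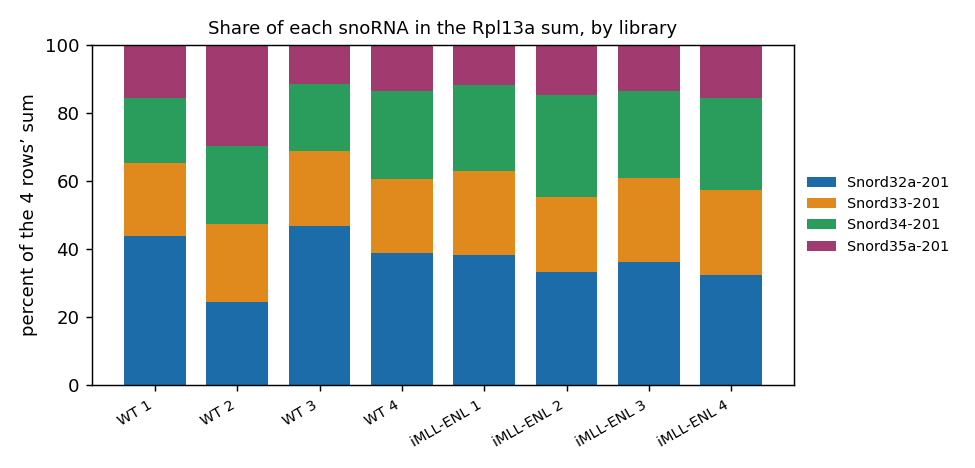
Share of each Rpl13a snoRNA in the sum of the 4 rows (y axis, percent) in each of the 8 libraries (x axis), as stacked bars. In WT replicate 2 Snord32a-201 falls to 24.3% and Snord35a-201 reaches 29.9%, while the iMLL-ENL bars stay between 32.2% and 38.3% for the first and between 11.9% and 15.6% for the second.

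Levels of different snoRNAs were compared per base of the annotated transcript. In WT the order was Snord32a-201 at 1.82 ± 0.63, Snord34-201 at 1.22 ± 0.34, Snord33-201 at 1.01 ± 0.17 and Snord35a-201 at 0.734 ± 0.256 RPM per base (SD, n = 4). Snord32a-201 and Snord34-201, and Snord34-201 and Snord33-201, differed by less than the larger of their SDs. In iMLL-ENL the order was the same, at 2.11 ± 0.32, 1.93 ± 0.33, 1.45 ± 0.32 and 0.786 ± 0.199 RPM per base (SD, n = 4), and only the first 2 differed by less than an SD. Whole snoRNAs and fragments were not told apart, so this scale assumes that reads come from the whole length. It also assumes that a longer RNA gives more reads, which was not tested. Without division by length the order of the means was the same in both groups.

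Across the 8 libraries the log2 levels of Snord33-201 and Snord34-201 had a Pearson correlation of 0.90, the highest among the 6 pairs, and those of Snord32a-201 and Snord35a-201 one of -0.26, the lowest. As log2 shares of all snoRNA the same pairs were at 0.38 and -0.65. All these points share the genotype contrast and the scale of each library, and the second pair also WT replicate 2, so these values are descriptions. The snoRNA rows whose log2 levels were most like the Rpl13a sum over the 8 libraries were Snord96a-201 (Pearson r = 0.957), SNORD56.1-201 (0.952), SNORD50.4-201 (0.952), Snord66-201 (0.952) and SNORD88.6-201 (0.951), out of 173 compared, whose median correlation with the sum was 0.75. Snord96a-201 went from 67.3 ± 12.7 to 80.2 ± 15.2 RPM (SD, n = 4). Of the 5, SNORD88.6-201 alone passed the limma test, with a log2 fold change of 0.81 ± 0.25 (SE) and an adjusted p of 0.038. With TMM factors it did not pass (0.43, adjusted p = 0.18).

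Box C/D snoRNAs of other ribosomal protein genes gave 22 tested rows, of which 2 rose, 0 fell and 20 did not pass, with a median log2 fold change of 0.25. Snord21-201 of Rpl5 went from 113 ± 18 RPM in WT to 243 ± 54 RPM (SD), with a limma log2 fold change of 1.09 and adjusted p = 0.0080. SNORD102.1-201, named for the snoRNA of Rpl21, went from 103 ± 24 to 183 ± 21 RPM (SD), with a limma log2 fold change of 0.85 and adjusted p = 0.013. Of the snoRNAs of Gas5, a non-coding host, 1 of 7 tested rows rose and 0 fell, with a median of 0.25. Of those of Snhg1, another non-coding host, 3 of 7 rose and 1 fell, with a median of 0.18. Among all 633 tested rows 20.4% rose and 8.53% fell. The counts and the sign of the medians turned with the scaling: after TMM scaling 1 row of the other ribosomal protein genes was called higher and 4 lower, with 0 and 1 for Gas5 and 0 and 3 for Snhg1, and the medians were -0.15, -0.15 and -0.22. Snord21-201 was still called higher there (0.69, adjusted p = 0.0091), and SNORD102.1-201 was not (0.46, adjusted p = 0.078). On the deposited scale the Rpl13a rows ran from 0.14 to 0.67. The ranges there were -0.72 to 0.67 for Snhg1, -0.12 to 0.86 for Gas5 and -0.43 to 1.09 for the other ribosomal protein genes. These lists hold 7, 7 and 22 tested rows against 4, and a range widens with the number of rows. After TMM scaling the Rpl13a rows ran from -0.26 to 0.28. Hosts were assigned by symbol, and rows with a number after a dot may be other copies of the family. Rows of a lettered family whose names carry no letter matched no listed symbol and were left out. Examples on the deposited scale are SNORD18.2-201 (-0.62, limma adjusted p = 0.15) and SNORD38.2-201 (0.78, limma adjusted p = 0.016).

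**Figure D5:**
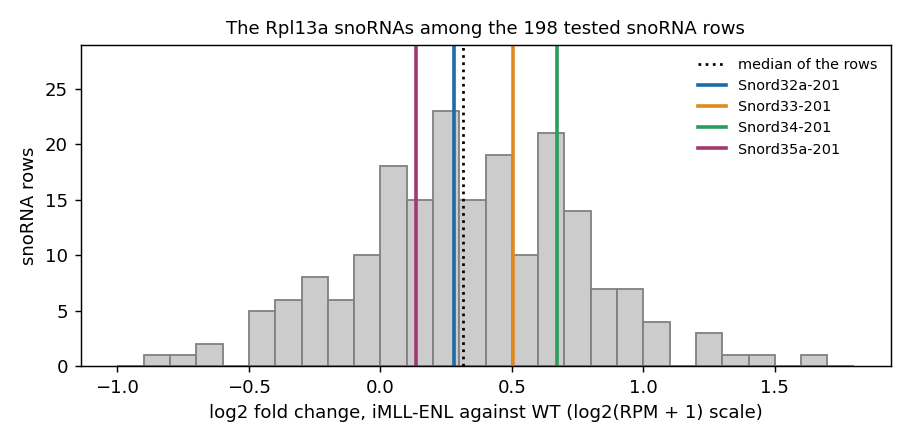
Histogram of the log2 fold change of iMLL-ENL against WT (x axis) over the 198 tested snoRNA rows (y axis, number of rows), with the 4 Rpl13a snoRNAs as coloured lines and the median as a dotted line. Snord35a-201 and Snord32a-201 lie below the median of 0.31, and Snord33-201 and Snord34-201 above it.

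In the authors' deposited table, Snord34-201 had a log2 fold change of 0.26 and Snord33-201 one of 0.13, while Snord32a-201 was at -0.18 and Snord35a-201 at -0.30. The order of the 4 was that of the fit here. The FDR in the authors' deposited table was 0.67 to 0.89 for these rows, and 16.5% of the 964 rows had one under 0.05.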

How the data were processed

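The members, lists and tests were chosen with earlier results of these data known. The RPM values of each library were deposited by the authors in 1 table, labelled as TPM. They are whole multiples of 1 step per library (99.8% to 100% within 0.0055 RPM), the same for all rows, so they are not divided by length. The log2 fold changes, p-values and FDR of the authors' own comparison were deposited with them. Libraries were made with a QIAseq miRNA kit, per the labels' protocols, and the build was GRCm38, per the submitters' processing notes; aligner, counting program, annotation, filters and use of molecular indexes were not given in the sources used here. If a step is 1 read, which was not shown, the scale of a library corresponds to 5913928 to 9274194 reads. Such estimates cover counting error only.

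Here limma 3.58.1 (R 4.3.3, statmod 1.5.0) was fitted to log2(RPM + 1) of all 633 rows with at least 10 RPM in at least 4 libraries, with a trended, robust prior, two-sided tests and Benjamini-Hochberg adjustment over these rows at 0.05. Fold changes are on this scale, which understates changes of low rows, and the prior pools variance over rows. Sums, shares and ratios were described without a test. Scaling, pseudocount, filter, prior, weights, replicate block and left-out libraries were varied. TMM factors were computed without weights. The count models listed as alternatives were not run, because the smallest value is 1 step in only 2 of the 8 libraries. Named rows besides the members are the 5 snoRNA rows best correlated with the members' sum and the called rows of the ribosomal protein list (at most 4). The rule as fixed held a further row, which is not reported here. Python 3.11.15, pandas 2.3.3, numpy 2.4.6 and Biopython 1.88 were used.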

Additional observations from a re-analysis of the deposited data

Results flagged for a closer look

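Of 40 sets of 4 libraries checked for a library far from the others (levels, shares and ratios of the Rpl13a snoRNAs), 3 held one, where chance gives about 1 in 20. All sets derive from the same 4 rows and are not independent, so this rate is only a rough guide. The flags for Snord33-201 rest on the same row and library, expressed as different shares. Snord34-201 in iMLL-ENL replicate 4 was at 169.09 RPM, with the other iMLL-ENL libraries at 122.24 to 124.54 RPM. That library was the highest of its group for all 4 rows and for the snoRNA sum. Snord33-201 in iMLL-ENL replicate 2 made up 0.445% of all snoRNA, against 0.540% to 0.554% in the other iMLL-ENL libraries, and 21.99% of the Rpl13a sum, against 24.6% to 25.0%.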

How the results depend on the processing

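The number of Rpl13a snoRNAs called, 1 on the deposited scale, was 0 after TMM scaling and after scaling to the snoRNA sum. It was 2 after scaling to the sum of the rows, after leaving the 5 most abundant rows out of that sum, with array quality weights (whose estimation stopped before convergence) and with the replicate block, and 0 to 1 without each library. The log2 ratio of the summed members, 0.37, was -0.030 after TMM scaling, -0.011 after scaling to the snoRNA sum, 0.63 after scaling to the sum of the rows and 0.65 without the 5 most abundant rows, and 0.25 to 0.47 without each library. These scalings moved the median of all rows from 0.31 to -0.08, -0.06, 0.59 and 0.62. Snord32a-201 turned to -0.12 (TMM), -0.10 (snoRNA sum), -0.086 (weights) and -0.017 (without WT replicate 2), and Snord35a-201 to -0.26, -0.24, -0.040 (quantile), -0.021 (weights), -0.098 (without WT replicate 3) and -0.025 (without iMLL-ENL replicate 4), with 0.327 as its highest value without 1 library. Snord33-201 and Snord34-201 stayed above 0 in all 20 alternatives run. The count of all rows called, 183, was 278 after scaling to the sum of the rows, 284 without the 5 most abundant, 282 without the filter, 457 with weights and 59 (without WT replicate 1) to 343 (without WT replicate 2). The split of 129 higher and 54 lower became 38 and 131 after TMM scaling, 37 and 114 after scaling to the snoRNA sum, 70 and 63 after quantile normalization, 104 and 66 after median centring, 251 and 27 after scaling to the sum of the rows and 255 and 29 without the 5 most abundant. The share of all snoRNA differed by -0.02 percentage points between the groups, by -0.14 to 0.08 without each library and by 0.11 with the 5 most abundant snoRNA rows left out of the sum. The cause of these changes was not tested. Same-numbered libraries had deviations correlated at 0.39, 0.29, -0.13 and 0.42, so the numbers were not taken to pair them. Libraries numbered 1, 2 and 4 correlated best with their own number and those numbered 3 did not. With the replicate block 193 rows were called, and Snord33-201 was at an adjusted p of 0.034 in limma.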
